A study of Rattus norvegicus with 12 samples.

Results

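The Z-disc and titin-linked stretch sensors are a set of 10 genes, Ankrd1, Ankrd2, Csrp3, Tcap, Ttn, Myoz2, Actn2, Xirp1, Xirp2 and Synpo2l, chosen by name for their place in the sarcomere. The choice was made with earlier results of these data known. Of these, 9 had a row among the 18483 genes of the deposited tables, and 8 passed the filter on low counts. Ankrd2 was left out by that filter, and Tcap was not analysed here. The RNA came from neonatal rat ventricular myocytes (NRVMs), heart muscle cells taken from Sprague-Dawley neonates and grown in culture. There were 4 groups of 3 biological replicates, 12 samples in all. All cells were transfected with siRNA, either a negative control (siNeg) or a single siRNA against Slc39a2 (siSlc39a2), which encodes a zinc importer of the plasma membrane. In each arm, 1 group also received phenylephrine (PE), an alpha-adrenergic agonist that makes these cells grow, for 36 h per the labels, whereas the study's culture methods give a longer exposure. The groups are written siNeg, siNeg PE, siSlc39a2 and siSlc39a2 PE.

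The Z-disc is the border of the sarcomere, where actin filaments of opposite polarity are crosslinked and the giant elastic protein titin is anchored. Force on the contractile apparatus passes through it, so proteins that bind titin or alpha-actinin there are regarded as candidate stretch sensors of the cardiomyocyte. Several of them, Ankrd1 and Csrp3 among them, also occur in the nucleus, and Ankrd1 is a widely used marker of load on the heart.

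Promoter sequence was examined as a description of the set only. RefSeq promoter entries (build GRCr8) were present for 7 of the 10 genes, and the 250 bases before the start were searched on both strands. A site for MEF2, a transcription factor of striated muscle, was found in 5 of the 7, Myoz2, Xirp2, Ttn, Xirp1 and Synpo2l. Among all genes with an entry, 3.32% of 27457 held such a site. These 5 sites are shown because the MEF2 site was the motif most of the genes shared, and each is written 5′ to 3′ on the strand of its gene with the matched letters in capitals.
Myoz2 (chr2:213852802-213852851, minus strand): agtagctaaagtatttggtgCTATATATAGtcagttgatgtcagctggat
Xirp2 (chr3:72534092-72534141, plus strand): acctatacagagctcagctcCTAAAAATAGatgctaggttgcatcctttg
Ttn (chr3:82332247-82332296, minus strand): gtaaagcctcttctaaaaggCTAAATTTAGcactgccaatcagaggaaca
Xirp1 (chr8:128635064-128635113, minus strand): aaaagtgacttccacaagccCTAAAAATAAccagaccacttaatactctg
Synpo2l (chr15:3684760-3684797, plus strand): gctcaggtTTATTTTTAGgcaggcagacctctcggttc

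The first base of the site lay 53 bases before the start of Myoz2, 74 before that of Xirp2, 166 before that of Ttn and 242 before that of Synpo2l. Xirp1 had 3 entries, and 2 of them held the same site, 82 or 90 bases before the start. No site was found in the windows of Ankrd2 and Actn2, and there was no entry for Ankrd1, Csrp3 and Tcap. The CArG box, bound by serum response factor, matched in 0 of the 7 genes (1.62% of all genes), the M-CAT motif CATTCC in 0 of 7 (12.9%) and the GATA motif AGATAA in 1 of 7, Xirp1 (10.9%), where it did not overlap the MEF2 site. The MEF2 site was present in 2 of 25 other Z-disc genes, 4 of 15 genes of titin partners and 1 of 13 cardiomyocyte markers. A match is a run of letters, and binding was not measured. The genes with a MEF2 site did not all respond alike. Their log2 fold changes with PE in control cells ran from 0.00 for Synpo2l to 1.16 for Xirp2. A link between the site and the response was not tested. The build of the deposited tables was Rnor_6.0, so these coordinates locate the promoters only.

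Total counts per sample lay between 24065539 and 28603854. The targeted gene was lower in siSlc39a2, where 21, 11 and 2 counts of Slc39a2 were left against 50, 50 and 59 in control cells (log2 fold change -2.35, SE 0.46, adjusted p = 0.00098), and with PE there were 31, 25 and 38 against 95, 198 and 182. Heart muscle markers were high in all samples, and the summed level of 15 of them was 78471 to 83659 CPM (counts scaled to library size) in siNeg, 77617 to 86304 in siNeg PE, 63490 to 65006 in siSlc39a2 and 74452 to 80311 in siSlc39a2 PE. The summed level of 12 fibroblast markers was 14019 to 18555, 9351 to 11937, 5421 to 5728 and 3664 to 5062 CPM in the same order. On knockdown alone 0 of the 15 heart muscle markers rose and 9 fell, and of the 12 fibroblast markers 1 rose and 8 fell. Over all genes 22.8% were called higher and 26.4% lower in that comparison. The groups differed in the summed RNA of these fibroblast markers, and its part in the results below was not tested. Col1a1 alone made up 10756 CPM of the mean in siNeg and 3351 in siSlc39a2, so the sum mostly follows collagen. The fibroblast marker that rose on knockdown was Tcf21 (log2 fold change 0.34), and Pdgfra (0.12) and Ddr2 (-0.04) were not called. In bulk samples, fewer cells of a type and less RNA per cell cannot be told apart. Endothelial markers (8 genes) summed to 17.9 to 27.8 CPM, macrophage markers (8 genes) to 31.4 to 121 CPM, and none of either list was at 0 in all replicates of a group. The 6 smooth muscle markers summed to between 921 and 2217 CPM. The 9 skeletal muscle markers summed to between 2832 and 5253 CPM, but only 3 of them passed the filter on low counts. These were Acta1 (250 to 2912 CPM), Tnni1 (1177 to 2193 CPM) and Ckm (343 to 2136 CPM). Ckm was also among the 15 heart muscle markers. The others, Myh3, Myh8, Tnnt3, Tnni2, Myog and Actn3, did not exceed 0.49 CPM in any sample.

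Ankrd1 rose in every comparison, and its rise was the greatest among the 8 genes in 3 of the 4. It encodes an ankyrin repeat protein that binds the elastic part of titin at the I-band and also acts as a cofactor of transcription. In FPKM, the fragments per kilobase of transcript scaled to library size, a level that takes account of transcript length, Ankrd1 measured 189, 207 and 226 in siNeg, 980, 1033 and 1272 in siNeg PE, 495, 488 and 619 in siSlc39a2, and 3190, 3423 and 3861 in siSlc39a2 PE. The 4 groups did not overlap. The counts behind these levels ran from 8612 to 174346.

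PE raised Ankrd1 by 2.32 on the log2 scale in control cells (SE 0.12, adjusted p = 3.2e-08). Knockdown of Slc39a2 alone raised it by 1.22 (SE 0.11, adjusted p = 1.8e-06), and with PE present by 1.66 (SE 0.11, adjusted p = 9.5e-08). All these tests were edgeR's quasi-likelihood test with Benjamini-Hochberg adjustment over 13967 genes. The cells with knockdown and PE carried 15.8 ± 1.47 (SD, n = 3) times the mean siNeg level of Ankrd1 on the CPM scale. Ankrd1 ranked between 426th and 555th among all genes by FPKM in siNeg and between the 5th and 9th in siSlc39a2 PE, where it took 0.531 to 0.637% of all counts. The difference between the log2 PE effects after knockdown and in control cells was 0.44 (SE 0.16) and did not pass the test (adjusted p = 0.165).

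**Figure D1:**
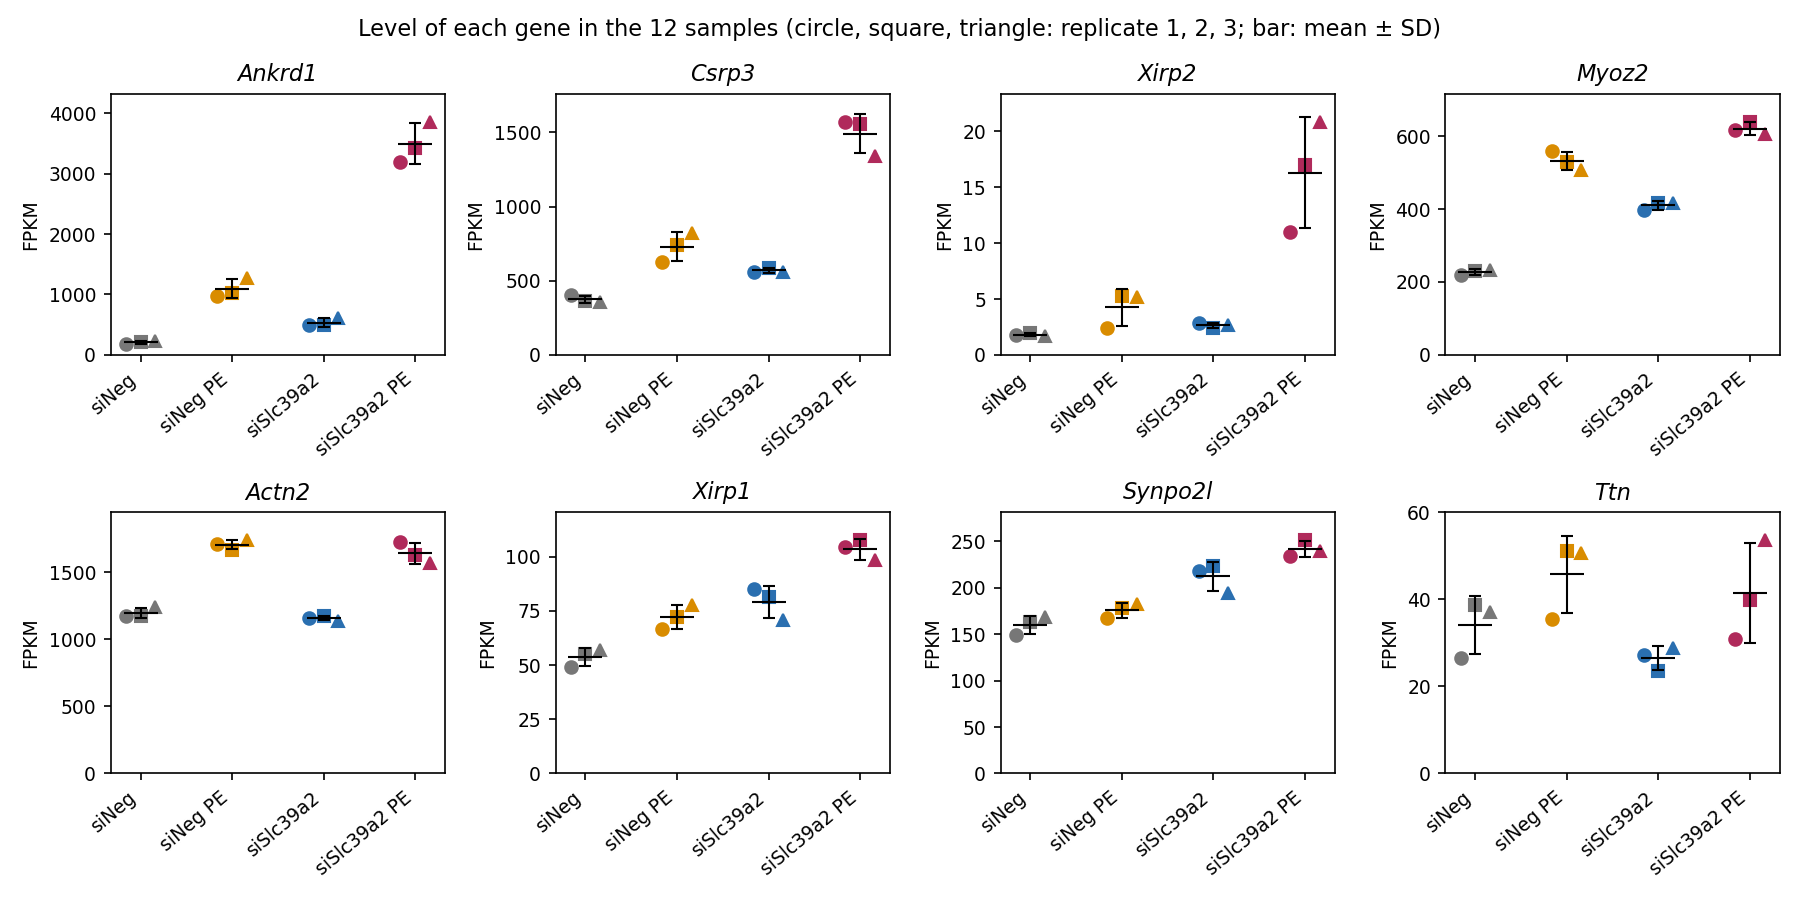
Level in FPKM (y axis, linear, from 0) of each of the 8 tested genes in the 4 groups (x axis). Symbols are the 3 replicates and bars the mean ± SD. Ankrd1 goes from 189 to 226 in siNeg to 3190 to 3861 in siSlc39a2 PE, whereas the levels of Ttn overlap between most groups.

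Ankrd2, the relative of Ankrd1 found mainly in slow skeletal muscle, was close to absent. It had 3, 0 and 0 counts in siNeg, 0, 4 and 3 in siNeg PE, 0, 0 and 0 in siSlc39a2, and 0, 1 and 0 in siSlc39a2 PE. No fold change is given, since no group exceeded a few reads. The third ankyrin repeat protein of this family, Ankrd23, belongs to the list of titin partners. It was low, at 0.20 ± 0.09 FPKM in siNeg and 1.07 ± 0.04 FPKM in siSlc39a2 PE (SD, n = 3), and was higher by 1.52 in siSlc39a2 PE than in siNeg PE on the log2 scale (SE 0.30, adjusted p = 0.00094).

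Csrp3, or muscle LIM protein, is a Z-disc adaptor that binds alpha-actinin and telethonin and can enter the nucleus. Its FPKM was 403, 361 and 358 in siNeg, 629, 742 and 820 in siNeg PE, 560, 589 and 562 in siSlc39a2, and 1574, 1559 and 1339 in siSlc39a2 PE. The groups did not overlap, and the lowest siSlc39a2 PE sample was above the highest of all the others. PE raised it by 0.87 in control cells (SE 0.10, adjusted p = 2e-05) and by 1.43 after knockdown (SE 0.10, adjusted p = 1.8e-07). Knockdown raised it by 0.45 without PE (SE 0.10, adjusted p = 0.0017) and by 1.01 with PE (SE 0.10, adjusted p = 2.4e-06). Csrp2, a related LIM protein, fell by 1.04 on knockdown without PE (SE 0.14, adjusted p = 4.2e-05), from 88.4 ± 17.2 to 43.1 ± 1.82 CPM (SD, n = 3), with counts that were estimated in part from shared reads.

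The difference between the PE effects on Csrp3 was 0.56 (SE 0.13, adjusted p = 0.04), close to the threshold. The adjusted p was between 0.0651 and 0.104 when siNeg 1 or 2, siNeg PE 1 or 2, any siSlc39a2 sample, or siSlc39a2 PE 1 or 2 was left out.

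Titin (Ttn), the elastic filament that runs from the Z-disc to the M-band, varied widely between replicates, and most of its groups overlapped in FPKM. Its FPKM was 26.4, 38.8 and 37.1 in siNeg, 35.5, 51.0 and 50.7 in siNeg PE, 27.2, 23.6 and 28.9 in siSlc39a2, and 30.9, 39.9 and 53.7 in siSlc39a2 PE. In FPKM all pairs of groups overlapped except siSlc39a2 with either PE group. In CPM siSlc39a2 (710 to 843) also lay below siNeg (894 to 1317). The difference with PE in control cells was 0.34 on the log2 scale (95% confidence interval -0.09 to 0.77, adjusted p = 0.166). After knockdown, Ttn was higher with PE by 0.67 (SE 0.20, adjusted p = 0.011), but without siSlc39a2 PE 3 the difference was 0.43 (adjusted p = 0.0593).

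On knockdown alone, Ttn fell by 0.55 (SE 0.20, adjusted p = 0.035). The adjusted p rose to 0.12 without siNeg 2, 0.0969 without siNeg 3, 0.0695 without siSlc39a2 1, 0.106 without siSlc39a2 2 and 0.0593 without siSlc39a2 3. With PE present, the knockdown difference was -0.22 (95% confidence interval -0.65 to 0.21, adjusted p = 0.358).

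The spread of Ttn was set beside that of long transcripts in general. Counts and FPKM together imply a length of 31140 bases for Ttn and 11978 for Xirp2. Over 157 other genes longer than 10000 bases, the median log2 CPM relative to the mean of the 12 samples was -0.51 in siNeg 1, where Ttn was at -0.32, and 0.42 in siSlc39a2 PE 3, where Ttn was at 0.55. In the siSlc39a2 samples Ttn was at -0.47, -0.66 and -0.41 and the median at -0.10, -0.20 and -0.09, and in siSlc39a2 PE 1 Ttn was at -0.25 and the median at 0.08. Within each group with PE both were lowest in replicate 1 and highest in replicate 3, while in siSlc39a2 Ttn lay further below its mean than the median did. When this median was added to the model, a choice made after the data were seen, the PE difference of Ttn became -0.15 in control cells (adjusted p = 0.235) and 2e-04 after knockdown (adjusted p = 1). In that model the knockdown difference was -0.69 without PE (adjusted p = 6.5e-06) and -0.54 with PE (adjusted p = 0.000107). The median was below 0 in every sample without PE, and above 0 with PE except in siNeg PE 1 (-0.13). The covariate thus overlaps with PE, and this model cannot separate a PE effect from a shift of long transcripts. Library quality was not measured, and its part in these values was not tested.

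**Figure D2:**
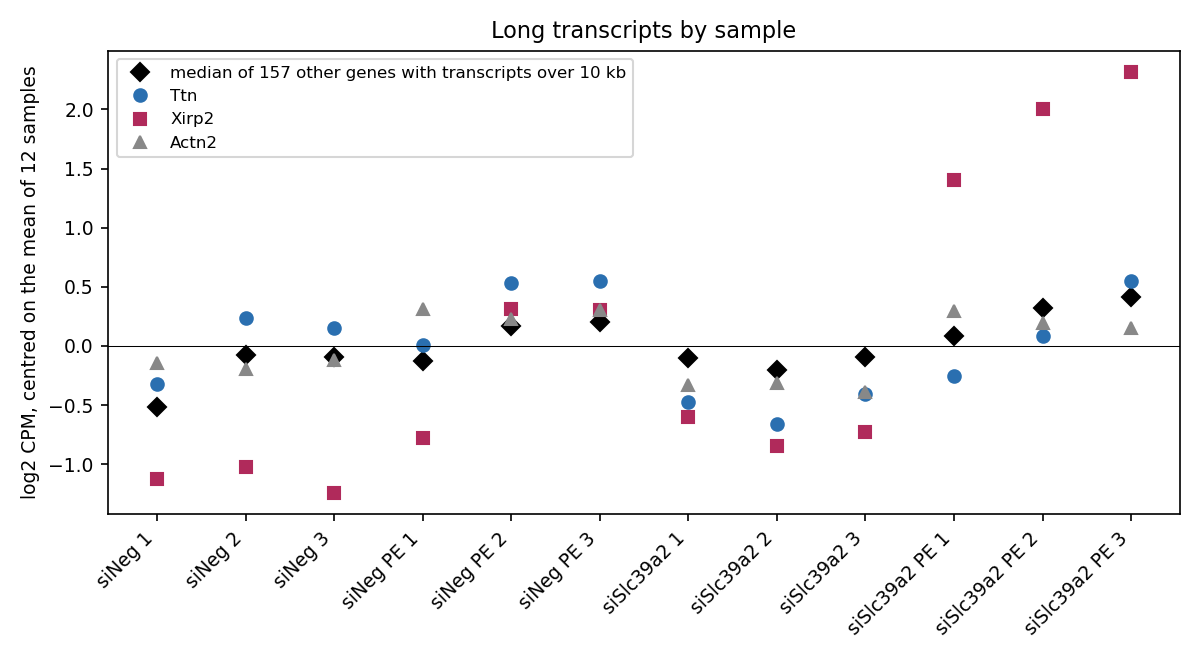
Log2 CPM of Ttn, Xirp2, Actn2 and the median of 157 other genes with transcripts over 10000 bases (10 kb), each centred on its mean over the 12 samples (y axis), by sample (x axis). The long-transcript median is lowest in siNeg 1 (-0.51) and highest in siSlc39a2 PE 3 (0.42), and Xirp2 in siSlc39a2 PE lies far above it.

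Myoz2, or calsarcin-1, ties calcineurin to alpha-actinin at the Z-disc and restrains calcineurin signalling. Its FPKM was 218, 231 and 233 in siNeg, 558, 528 and 508 in siNeg PE, 397, 417 and 416 in siSlc39a2, and 616, 640 and 606 in siSlc39a2 PE. The groups did not overlap and the replicates were tight. PE raised Myoz2 by 1.14 in control cells (SE 0.06, adjusted p = 3.5e-08) and by 0.65 after knockdown (SE 0.06, adjusted p = 1.8e-06). Knockdown raised it by 0.71 without PE (SE 0.06, adjusted p = 5.7e-07) but by 0.22 with PE (SE 0.06, adjusted p = 0.0059).

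Myoz2 was the one member whose PE effect was smaller after knockdown. The difference between the log2 PE effects was -0.49 (SE 0.08, adjusted p = 0.0046), and it was past the threshold whichever single sample was left out. By limma on log2(FPKM + 0.1) it was -0.36 and not called (adjusted p = 0.0811). The level with both treatments was 2.56 ± 0.07 (SD, n = 3) times siNeg, against 2.20 ± 0.14 with PE alone and 1.63 ± 0.05 with knockdown alone.

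Actn2, the sarcomeric alpha-actinin that crosslinks actin at the Z-disc, was the most abundant member in 9 of the 12 samples. Its FPKM was 1177, 1175 and 1242 in siNeg, 1710, 1670 and 1741 in siNeg PE, 1159, 1171 and 1140 in siSlc39a2, and 1725, 1625 and 1571 in siSlc39a2 PE. The groups with and without PE were apart, whereas those with PE overlapped each other. PE raised Actn2 by 0.43 in control cells (SE 0.06, adjusted p = 9.6e-05) and by 0.56 after knockdown (SE 0.06, adjusted p = 7.3e-06). Knockdown without PE lowered it by the main test (log2 fold change -0.19, SE 0.06, adjusted p = 0.015), but without siSlc39a2 3 the adjusted p was 0.0545. The value was -0.05 when scaled by total counts (adjusted p = 0.452) and 0.08 to 0.14 by limma on quantile-normalized values, so the direction was not the same in all analyses. With PE, the knockdown difference was -0.07 (95% confidence interval -0.19 to 0.06, adjusted p = 0.341), and 0.16 to 0.29 by limma.

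Xirp1 and Xirp2 encode the Xin repeat proteins, which bind actin and filamin C and lie at the intercalated disc and near the Z-disc. Xirp2 was scarce in control cells and rose steeply with both treatments. Its FPKM was 1.76, 1.95 and 1.68 in siNeg, 2.37, 5.23 and 5.15 in siNeg PE, 2.84, 2.40 and 2.67 in siSlc39a2, and 11.0, 17.0 and 20.9 in siSlc39a2 PE. The siNeg PE and siSlc39a2 samples overlapped, and the siSlc39a2 PE samples lay above all others. The log2 fold change with PE was 1.16 in control cells (SE 0.26, adjusted p = 0.0034) and 2.68 after knockdown (SE 0.27, adjusted p = 5.2e-06).

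Knockdown of Slc39a2 raised Xirp2 by 1.93 with PE present (SE 0.26, adjusted p = 4.7e-05), whereas without PE the difference was 0.40 (95% confidence interval -0.17 to 0.98, adjusted p = 0.225). The difference between the PE effects was 1.53 (SE 0.37, adjusted p = 0.0395). Without any 1 of the siNeg or siSlc39a2 samples, or siSlc39a2 PE 2 or 3, its adjusted p was 0.0602 to 0.0985, and the difference itself was 1.31 to 1.59. With the long-transcript median in the model, the PE effect in control cells was 0.59 (adjusted p = 0.0868) and that after knockdown was 1.98. That median was itself mostly higher with PE.

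Xirp1 rose in all 4 comparisons. Its FPKM was 49.3, 55.1 and 57.1 in siNeg, 66.5, 72.0 and 77.6 in siNeg PE, 85.2, 81.6 and 71.0 in siSlc39a2, and 104, 108 and 98.3 in siSlc39a2 PE. Levels in siNeg PE and siSlc39a2 overlapped, and the other groups were apart. The log2 rises lay between 0.35 (SE 0.08, adjusted p = 0.0044) for PE in control cells and 0.52 (SE 0.08, adjusted p = 0.00017) for knockdown with PE. The difference between the PE effects was 0.08 (95% confidence interval -0.17 to 0.34, adjusted p = 0.796).

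Synpo2l, a PDZ and actin-binding protein of the cardiac Z-disc, answered to knockdown more than to PE. Its FPKM was 149, 163 and 168 in siNeg, 167, 178 and 182 in siNeg PE, 218, 224 and 195 in siSlc39a2, and 234, 251 and 240 in siSlc39a2 PE. Samples with knockdown were all above those without. With PE in control cells the log2 difference was 0.00 (95% confidence interval -0.14 to 0.14, adjusted p = 0.993), but 0.23 by limma on log2(FPKM + 1) (adjusted p = 0.039). Knockdown raised it by 0.25 without PE (SE 0.07, adjusted p = 0.0068) and by 0.46 with PE (SE 0.07, adjusted p = 8.1e-05). PE raised it by 0.21 after knockdown (SE 0.07, adjusted p = 0.015), but the adjusted p was 0.0547 without siSlc39a2 3 and 0.0609 without siSlc39a2 PE 2. The difference between the PE effects was 0.21 (SE 0.09, adjusted p = 0.293).

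**Figure D3:**
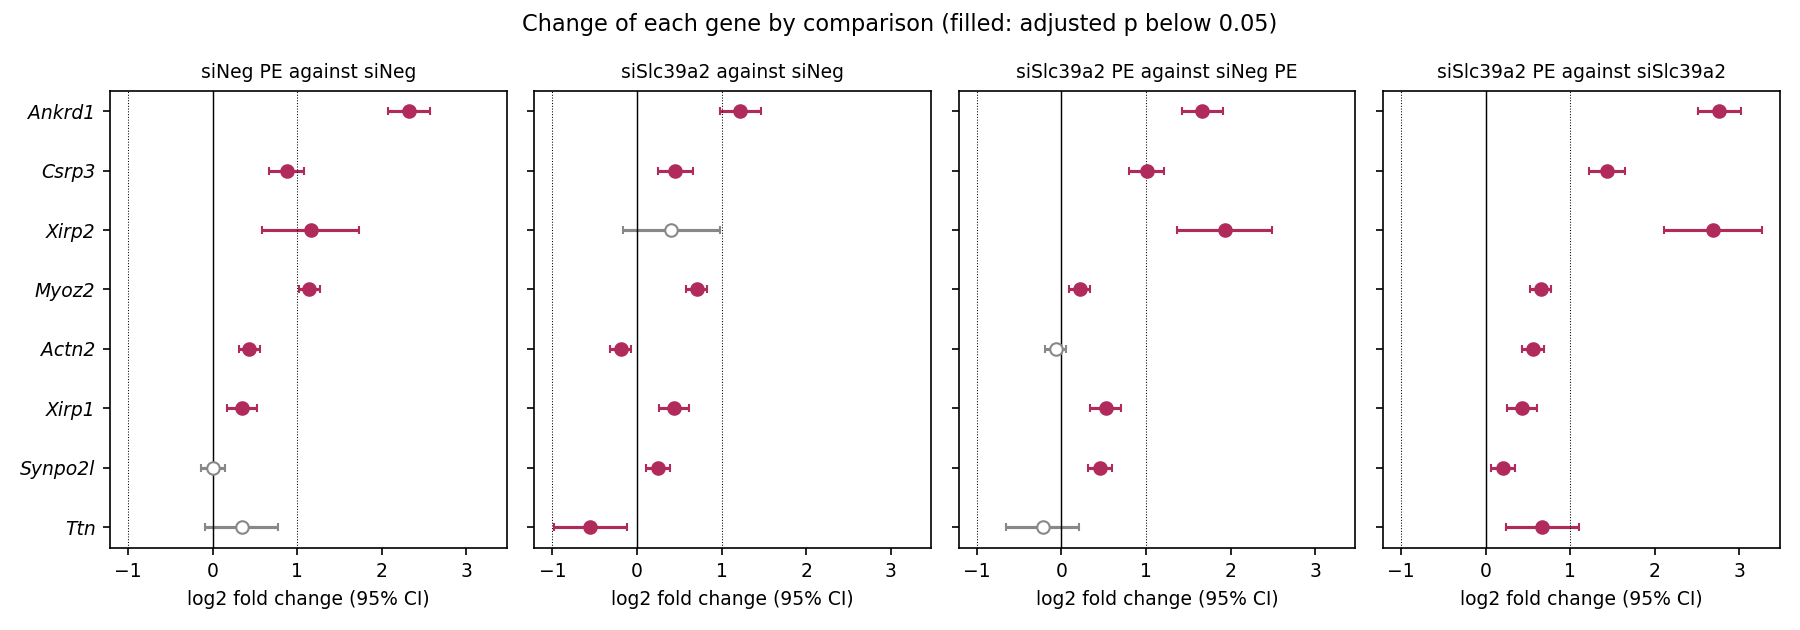
Log2 fold change with its 95% confidence interval (x axis) of the 8 tested genes (y axis) in the 4 comparisons. Filled points passed an adjusted p of 0.05, and dotted lines mark a log2 fold change of 1. Ankrd1 is at 2.32, 1.22, 1.66 and 2.76 from left to right, and all 8 genes lie above 0 in the comparison of siSlc39a2 PE with siSlc39a2.

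The order of the members by FPKM was Actn2, Csrp3, Myoz2, Ankrd1, Synpo2l, Xirp1, Ttn, Xirp2 and Ankrd2 in all siNeg samples. The ranges of neighbours in that order were apart except those of Myoz2 (218 to 233) and Ankrd1 (189 to 226). Ankrd1 was second in all siNeg PE samples and first in all siSlc39a2 PE samples, and the order of the rest was the same in every sample. Relative to Actn2 in the same sample, a ratio that no scaling between samples can alter, the FPKM of Ankrd1 was 0.161, 0.176 and 0.182 in siNeg and 1.85, 2.11 and 2.46 in siSlc39a2 PE. The same ratio for Csrp3 was 0.313 ± 0.027 in siNeg and 0.908 ± 0.053 in siSlc39a2 PE (SD, n = 3). For Xirp1 it was 0.045 ± 0.003 in siNeg and 0.042 ± 0.003 in siNeg PE, and the ranges of the replicates overlapped. The 9 genes together took 0.597 to 0.664% of all counts in siNeg and 1.48 to 1.59% in siSlc39a2 PE.

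In counts, PE in control cells raised 6 of the 8 tested members and lowered 0 at an adjusted p below 0.05, while over all 13967 genes 24% were called higher and 25.7% lower. With a log2 fold change above 1 required as well, 3 members rose, Ankrd1, Myoz2 and Xirp2, against 3.8% of all genes higher and 2.8% lower. Knockdown alone raised 5 members and lowered 2, against 22.8% higher and 26.4% lower over all genes, and only Ankrd1 passed both thresholds, against 4.57% higher and 5.21% lower. With each library scaled by its total count, the split over all genes was 33.7% higher and 18.2% lower for knockdown, and the median of all genes shifted from -0.02 to 0.13. With PE in control cells that scaling gave 28.4% higher and 20.3% lower.

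With PE present, knockdown raised 6 members and lowered 0, against 29.2% higher and 28.1% lower over all genes. Ankrd1, Csrp3 and Xirp2 passed both thresholds, against 6.03% of all genes higher. After knockdown, PE raised all 8 tested members, against 30.7% of all genes higher and 29.3% lower, or 27.2% and 33.8% when scaled by total counts. The same 3 genes passed both thresholds, against 6.34% higher and 4.17% lower. The PE effect differed with knockdown for 3 members, greater for Csrp3 and Xirp2 and smaller for Myoz2. Over all genes the difference was called positive for 1.73% and negative for 1.88%, or 1.07% and 5.27% when scaled by total counts. Among the members Xirp2 alone also passed the fold threshold for this difference, against a positive difference past it for 0.451% of all genes. The median log2 fold change of the 8 members was 0.65, 0.42, 0.49 and 0.66 in the 4 comparisons, and that of all genes lay between -0.02 and 0.01. Comparisons that use the same group share samples and are not independent. The members and the gene lists below were chosen with earlier results of these data known. Their counts beside the shares of all genes are therefore a description and not a test of the set.

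**Figure D4:**
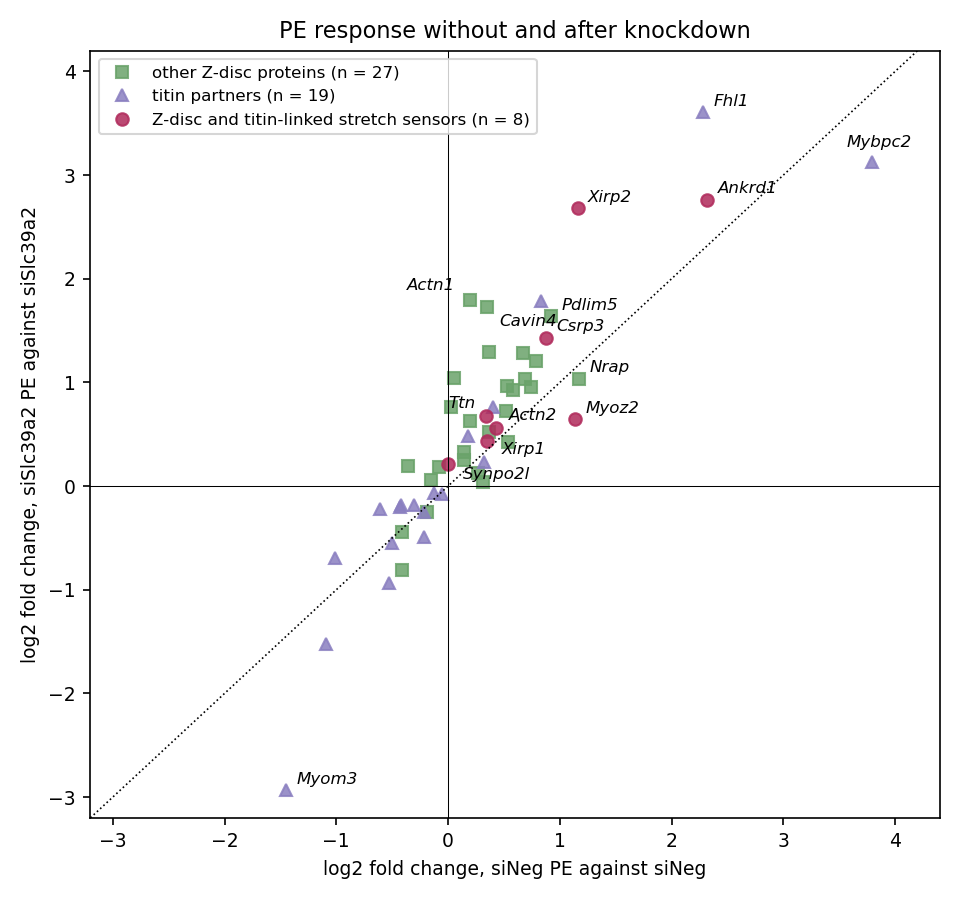
Log2 fold change with PE in control cells (x axis) and after Slc39a2 knockdown (y axis) for the 8 members, 27 other Z-disc genes and 19 titin partners. The dotted line marks equal effects. Xirp2 (1.16 and 2.68) and Csrp3 (0.87 and 1.43) lie above the line, and Myoz2 (1.14 and 0.65) below it.

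The other Z-disc genes, 27 tested of 30 listed, rose more often than they fell with PE. PE in control cells raised 14 and lowered 4 (24% and 25.7% over all genes), with a median log2 fold change of 0.32, and after knockdown it raised 21 and lowered 2 (30.7% and 29.3% over all genes), with a median of 0.72. Knockdown alone raised 5 and lowered 9 (median -0.08), shares near those of all genes (22.8% and 26.4%). With PE present it raised 12 and lowered 3 (29.2% and 28.1% over all genes, median 0.16). Nrap, an actin-binding protein of myofibril assembly, rose with PE in control cells by 1.17 (SE 0.07, adjusted p = 7.8e-08), from 253, 280 and 303 CPM to 625, 602 and 655 CPM.

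For some of these genes the PE effect depended on knockdown. Actn1, the non-muscle alpha-actinin, was at 126, 152 and 151 CPM in siNeg, 118, 167 and 206 in siNeg PE, 104, 106 and 114 in siSlc39a2, and 366, 367 and 393 in siSlc39a2 PE. The siNeg and siNeg PE samples overlapped, while the siSlc39a2 PE samples were far above the rest. The PE effect on Actn1 was 0.19 in control cells (SE 0.15, adjusted p = 0.295) and 1.79 after knockdown (SE 0.15, adjusted p = 1.3e-06), with a difference of 1.60 (SE 0.21, adjusted p = 0.0012). Lmcd1, a LIM protein that restrains GATA6, was at 11.8 ± 1.62 CPM in siNeg PE and 26.8 ± 1.10 in siSlc39a2 PE (SD, n = 3), a log2 difference of 1.18 (SE 0.11, adjusted p = 1.9e-06). Pdlim5, a PDZ-LIM protein that binds alpha-actinin, rose with PE after knockdown by 1.64 (SE 0.12, adjusted p = 3.2e-07). Cavin4, a caveolar protein of muscle, rose by 1.73 there (SE 0.34, adjusted p = 0.00081) from a low level of 1.58 ± 0.51 CPM, with counts that were not all whole. The difference between the PE effects on Cavin4 was 1.38 (SE 0.47) and did not pass the test (adjusted p = 0.155). In this list the difference between the log2 PE effects (after knockdown less control) was called positive for 7 genes and negative for 0. The 7 were Actn1, Actn4, Pdlim5, Pdlim7, Mypn, Csrp1 and Lmcd1. For Mypn the PE effect was -0.36 in control cells and 0.20 after knockdown. Over all genes the difference was positive for 1.73% and negative for 1.88%. In the same samples, it was also positive for 3 of the 6 smooth muscle markers, Acta2, Tagln and Cnn1, at 1.25 to 1.71. Their PE effects in control cells and after knockdown were -0.43 and 0.86 for Acta2, -1.48 and -0.23 for Tagln, and 2.57 and 4.29 for Cnn1. The part of such cells in the list's values was not tested.

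The titin partners, 19 genes whose proteins bind titin or act on it, were mixed. PE in control cells raised 4 and lowered 9 (24% and 25.7% over all genes, median -0.21), and after knockdown raised 5 and lowered 9 (30.7% and 29.3% over all genes, median -0.18). Knockdown raised 6 and lowered 6 without PE (22.8% and 26.4% over all genes, median 0.07) and raised 6 and lowered 5 with PE (29.2% and 28.1% over all genes, median 0.03), shares near those of all genes. Fhl1, a LIM protein that binds the N2B part of titin and is known for its rise in hypertrophy, was at 244, 253 and 273 CPM in siNeg, 988, 1268 and 1476 in siNeg PE, 223, 241 and 245 in siSlc39a2, and 2896, 2874 and 2878 in siSlc39a2 PE. The groups without PE overlapped, and those with PE were apart. Fhl1 rose with PE by 2.28 in control cells (SE 0.12, adjusted p = 3.5e-08) and by 3.61 after knockdown (SE 0.12, adjusted p = 5.6e-10), and the difference was 1.33 (SE 0.16, adjusted p = 0.00056).

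Mybpc2, the fast skeletal form of myosin-binding protein C, rose with PE in control cells by 3.79 (SE 0.20, adjusted p = 4e-08), from 2.43 ± 0.70 to 33.7 ± 7.52 CPM, and on knockdown by 1.48 (SE 0.21, adjusted p = 7.8e-05). Myom3, an M-band crosslinker of titin, rose on knockdown alone by 0.71 (SE 0.11, adjusted p = 0.00013) and fell with PE, with a log2 fold change of -1.45 in control cells (SE 0.11, adjusted p = 1.3e-06) and -2.93 after knockdown (SE 0.12, adjusted p = 3e-09), from 28.4 ± 0.65 to 3.70 ± 0.63 CPM in the latter (SD, n = 3). The counts of Myom3 were not all whole.

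**Figure D5:**
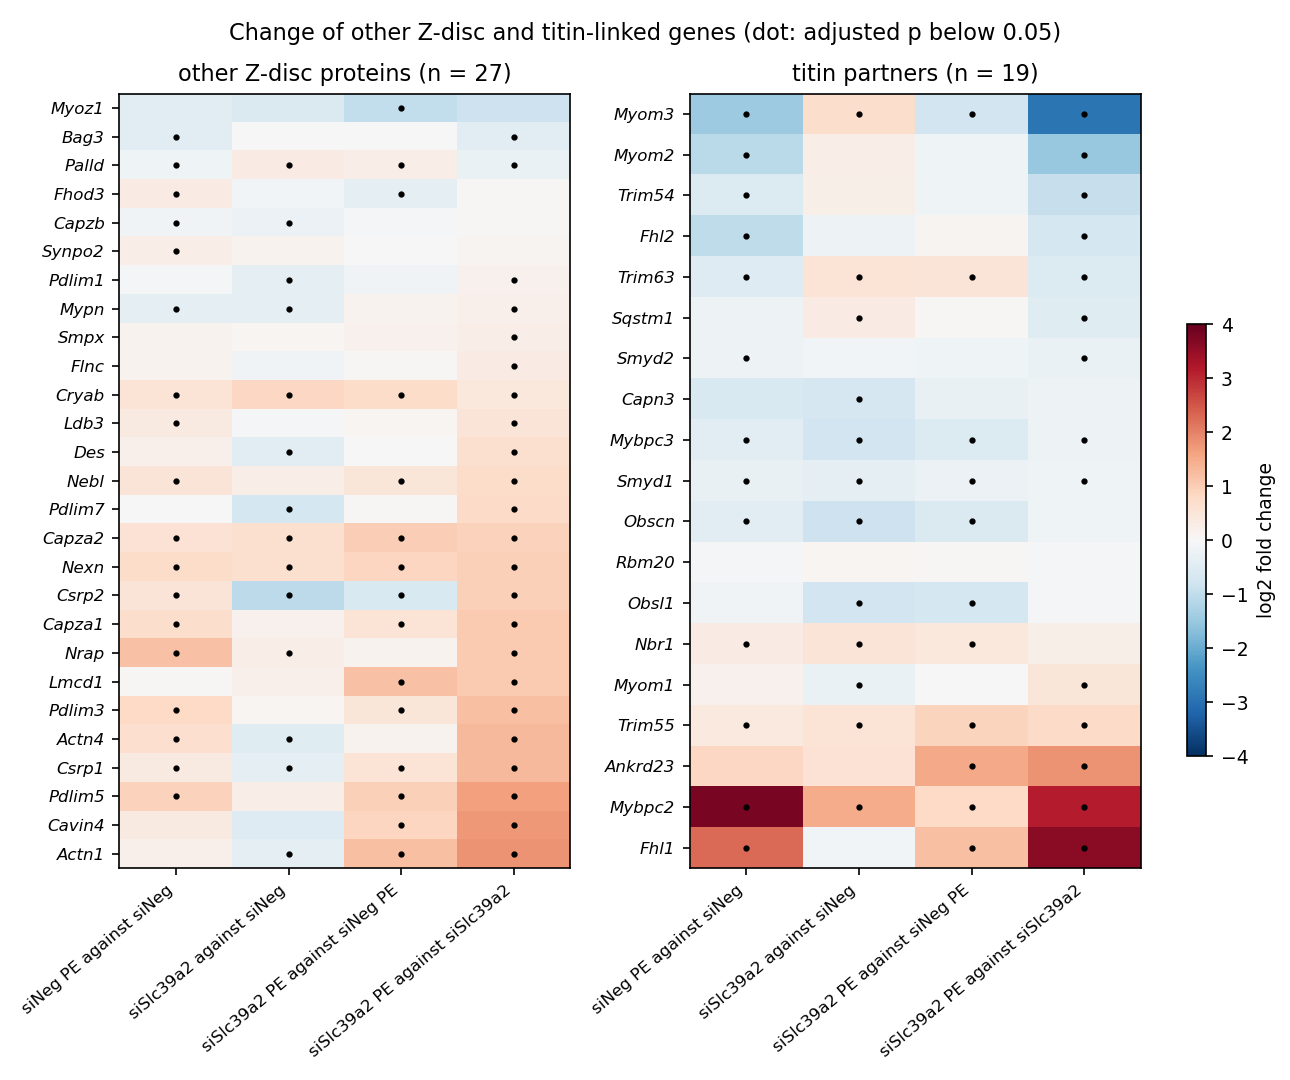
Log2 fold change (colour, from blue for lower to red for higher) of 27 other Z-disc genes and 19 titin partners (y axis) in the 4 comparisons (x axis). A dot marks an adjusted p below 0.05. PE after knockdown raised 21 and lowered 2 of the Z-disc genes, and raised 5 and lowered 9 of the titin partners.

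Genes with the pattern nearest to a member were sought among 11747 expressed genes by the root mean square difference of centred log2 CPM over the 12 samples. For Ankrd1, which spanned 4.22 log2 units, the nearest were B3galt2 (0.25 log2 units), Krt18 and Rnd1. For Csrp3 they were Adprhl1 (0.12), Fads3 and Mafk, and for Myoz2 they were Gpx3 (0.087), Art4 and Arhgef3. Among the members themselves, Xirp1 and Synpo2l were the closest pair (0.17). These distances are descriptions and were not tested.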

How the data were processed

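RNA-seq of 12 samples was analysed. The authors deposited expected counts per gene and FPKM per gene. The submitters' processing notes name HISAT, Bowtie2 and the build Rnor_6.0, and the counting program, the annotation and the use of strand are not given in the sources used here. Of the deposited count values 78.7% were whole (within 1e-09), and all those of the 9 members were. Reads shared between similar genes may be split by such estimates. In the RefSeq annotation of GRCr8, Ttn, Xirp1 and Xirp2 each overlap a lncRNA gene and Actn2 a tRNA gene, none with a row in the tables, so reads of such partners cannot be told apart from theirs.

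Groups came from the labels. Expected counts were rounded to whole numbers, filtered with filterByExpr (13967 of 18483 genes kept), scaled by TMM and tested with edgeR 4.0.16 (R 4.3.3) in 1 quasi-likelihood fit of the 4 groups with 8 residual degrees of freedom. The interaction is the PE effect after knockdown less that in control cells, which equals the knockdown effect with PE less that without. P-values were adjusted over all tested genes by Benjamini-Hochberg, and a gene was called at an adjusted p below 0.05. A second rule, after the study's methods, also required a log2 fold change beyond 1. The study tested with limma on normalized values, which is an alternative here because the files hold counts. The script was tested on simulated data. P-values measure the spread between these cultures only, and counting error adds to it for genes with few counts.

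Alternatives were DESeq2 1.42.0, limma 3.58.1 after quantile normalization (FPKM on the log2 scale with a pseudocount of 1 or 0.1, and counts with a pseudocount of 1), no filter, a replicate block, the compared groups alone and each sample left out. Scaling by total counts, leaving out 1 replicate number in all groups and a long-transcript covariate were added after the data were seen. All 10 members were named. From the lists of other Z-disc proteins and titin partners, up to 3 genes per comparison with the largest change past both thresholds were named, and for each member past both thresholds the 3 nearest genes with a mean log2 CPM above 1 (those of Xirp2 are not reported here). Genes whose PE effect differed with knockdown (Actn4, Pdlim7, Mypn, Csrp1, Acta2, Tagln and Cnn1) were named after their values were seen. The members and lists were chosen with earlier results of these data known. Of 10 skeletal muscle markers, 9 were in the tables and 3 were tested.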

Additional observations from a re-analysis of the deposited data

Results flagged for a closer look

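The knockdown effect differed with and without PE for 3 members by the interaction term of the edgeR quasi-likelihood fit. For Csrp3 the knockdown effect was greater with PE by 0.56 on the log2 scale (SE 0.13, adjusted p = 0.04). The adjusted p was 0.0651 to 0.104 when any 1 of several samples was left out. For Xirp2 the knockdown effect was greater with PE by 1.53 (SE 0.37, adjusted p = 0.0395), and likewise 0.0602 to 0.0985 was the adjusted p without any 1 of several samples. For Myoz2 the difference was -0.49 (SE 0.08, adjusted p = 0.0046), so the knockdown effect was smaller with PE. By limma on log2(FPKM + 0.1) the Myoz2 difference was -0.36 and not called (adjusted p = 0.0811). The siSlc39a2 PE samples were above all others for Csrp3 and Xirp2. Effects that add on the log2 scale can give that order as well, so it does not bear on the interaction.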

How the results depend on the processing

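Over 40 results of single members and 800 alternatives, 714 gave the same direction and the same side of the threshold, 65 lost the call, 7 gained one and 14 turned the direction. With the fold threshold added, the counts of members called were 3, 1, 3 and 3 in the 4 comparisons and 1 for the interaction. The interaction count was 1 with limma on log2(FPKM + 0.1), with limma on log2(count + 1) and with total counts, and 0 to 3 when samples were left out. For knockdown alone that range was 3 to 7, with 3 when replicate 2 was left out of every group. Values that turned direction were Actn2 on knockdown (0.1407, 0.1408 and 0.0789 by the 3 limma fits) and with PE (0.1561, 0.1562 and 0.2873, the last at an adjusted p of 0.00135), the interaction of Xirp1 (-0.0072 by limma on log2(count + 1), -0.0469 with total counts, -0.0026 to 0.1435 with samples left out), that of Actn2 (-0.0062 with total counts), Synpo2l with PE (-0.0263 to 0.0257 with samples left out, -0.0352 with the covariate) and Ttn with PE (-0.15 with the covariate). Their causes were not tested. Without replicate 2, the interaction had an adjusted p of 0.573 for Csrp3, 0.512 for Xirp2 and 0.4 for Myoz2, and 17 genes were called in all, against 504 in the fit of all samples. That total was 806 with DESeq2, 805 with limma on log2(FPKM + 1), 886 with total counts, 1157 with the covariate and 255 to 302 without siNeg 2, siNeg PE 1 or 2, siSlc39a2 1 or 2, or siSlc39a2 PE 2. PE after knockdown called 8378 genes, and 5413 with the covariate. Without replicate 2 the 4 comparisons called 2701, 3919, 4724 and 4305 genes, against 6935, 6873, 8001 and 8378.

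Same-numbered samples correlated at 0.0535 to 0.315 with PE in control cells and -0.0107 to 0.025 on knockdown. The values were 0.00387 to 0.32 on knockdown with PE and -0.0904 to 0.221 with PE after knockdown. In that order the mean of same-numbered pairs was 0.19, 0.006, 0.15 and 0.05, and that of other pairs -0.09, -0.003, -0.07 and -0.03. In no comparison did all 3 pairs exceed 0.1. The main fit did not use the replicate numbers, and it takes no account of any partial pairing. In the same order 4, 2, 4 and 2 of 6 samples correlated best with their own number. With the replicate block, 7, 7, 6 and 8 members were called, the interaction called 4 members and 1053 genes, and 2 single members gained a call, the interaction of Ankrd1 (0.45, adjusted p = 0.00277) and Ttn with PE in control cells (0.34, adjusted p = 0.0449). Total counts of at least 24065539 put the 8 tested members well above counting limits, whereas Ankrd2, with 4 counts at most, could not be compared.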
